A study of Mus musculus with 6 samples.

Results

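The 10 genes described here mark astrocytes and Bergmann glia, and all 10 were found among the 46983 gene identifiers of the count tables and passed the filter on low counts. They were taken by name and fall into the intermediate filament genes linked with reactive glia (Gfap, Vim), the glutamate transporters (Slc1a2, Slc1a3), a pair of genes used as Bergmann glia markers (Gdf10, Hopx) and 4 further glial genes (S100b, Aqp4, Gja1, Sox9). Reads were counted in the cerebellum of 6 C57BL/6J mice at postnatal day 60, 3 labelled Slc7a5-KO (Tie2-Cre, Slc7a5 fl/fl) and 3 labelled WT (Tie2-Cre, Slc7a5 fl/+). All 6 animals thus carried the Tie2-Cre recombinase, which acts in endothelial and blood lineages, and the WT animals carried 1 floxed Slc7a5 allele. Astrocytes and Bergmann glia lie outside those lineages. The comparison asks how their transcripts stood in a cerebellum whose vessels were meant to lose the amino acid transporter LAT1, the product of Slc7a5. Each library came from 1 animal.

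Astrocytes take up glutamate and potassium released by neurons, couple to each other through gap junctions and wrap blood vessels with their end-feet. Bergmann glia are the radial astrocytes of the cerebellar cortex. Their cell bodies lie beside those of Purkinje cells, and their processes enclose the synapses on Purkinje cell dendrites. When neural tissue is injured or stressed, astrocytes commonly raise intermediate filament genes, above all Gfap.

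Depth was 13438182 to 31077690 gene reads in the libraries labelled Slc7a5-KO and 27672205 to 34160856 in the WT libraries, and the shallowest, Slc7a5-KO replicate 3, also stood apart on the first principal component. Slc7a5 itself stood at 164, 59.4 and 118 CPM (read counts scaled to library size) in replicates 1 to 3 labelled Slc7a5-KO, against 72.0, 66.3 and 43.2 CPM in WT replicates 1 to 3. The targeted transcript was therefore not lower under the Slc7a5-KO label (log2 fold change 0.91 ± 0.42, edgeR adjusted p = 0.84). Leaving out Slc7a5-KO replicate 2 made it a called gene, higher under that label (log2 1.22, edgeR adjusted p = 0.010), whereas leaving out Slc7a5-KO replicate 1 brought it to 0.55 (edgeR adjusted p = 0.75) and a sex term to 0.57 (edgeR adjusted p = 0.72). Every direction below follows the labels, which this gene does not bear out. Its counts cover the whole gene and the whole cerebellum, so they cannot decide whether the vessels lost it. Over all 16851 genes tested, edgeR called 8 higher and 0 lower at a false discovery rate of 0.05, 0.0475% of the genes, and DESeq2 called 39 higher and 6 lower, or 0.299% of the genes to which it gave an adjusted value. At an unadjusted edgeR p under 0.05 there were 582 higher and 466 lower genes.

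None of the 10 glial genes passed the edgeR threshold, against that background of 0.0475%, nor did any under DESeq2 (0.299%) or limma-voom (0.0356%). Gfap was the member with the largest difference and the smallest p, with a log2 fold change of 0.55 ± 0.14. S100b and Hopx stood lower by values of -0.38 ± 0.13 and -0.39 ± 0.15, and the other 7 members lay between -0.23 and 0.13. The median of the 10 members was -0.08, with 3 above 0 and 7 below, beside a median of 0.0022 over all genes tested. At an unadjusted edgeR p under 0.05 there were 1 higher member (Gfap) and 2 lower (S100b, Hopx), where 3.45% of all genes were higher and 2.77% lower at that mark, 6.22% in all. Values after ± are standard errors for log2 fold changes and SD for levels, with 3 animals a group. In whole tissue, fewer cells of a type and less RNA per cell cannot be told apart.

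**Figure D1:**
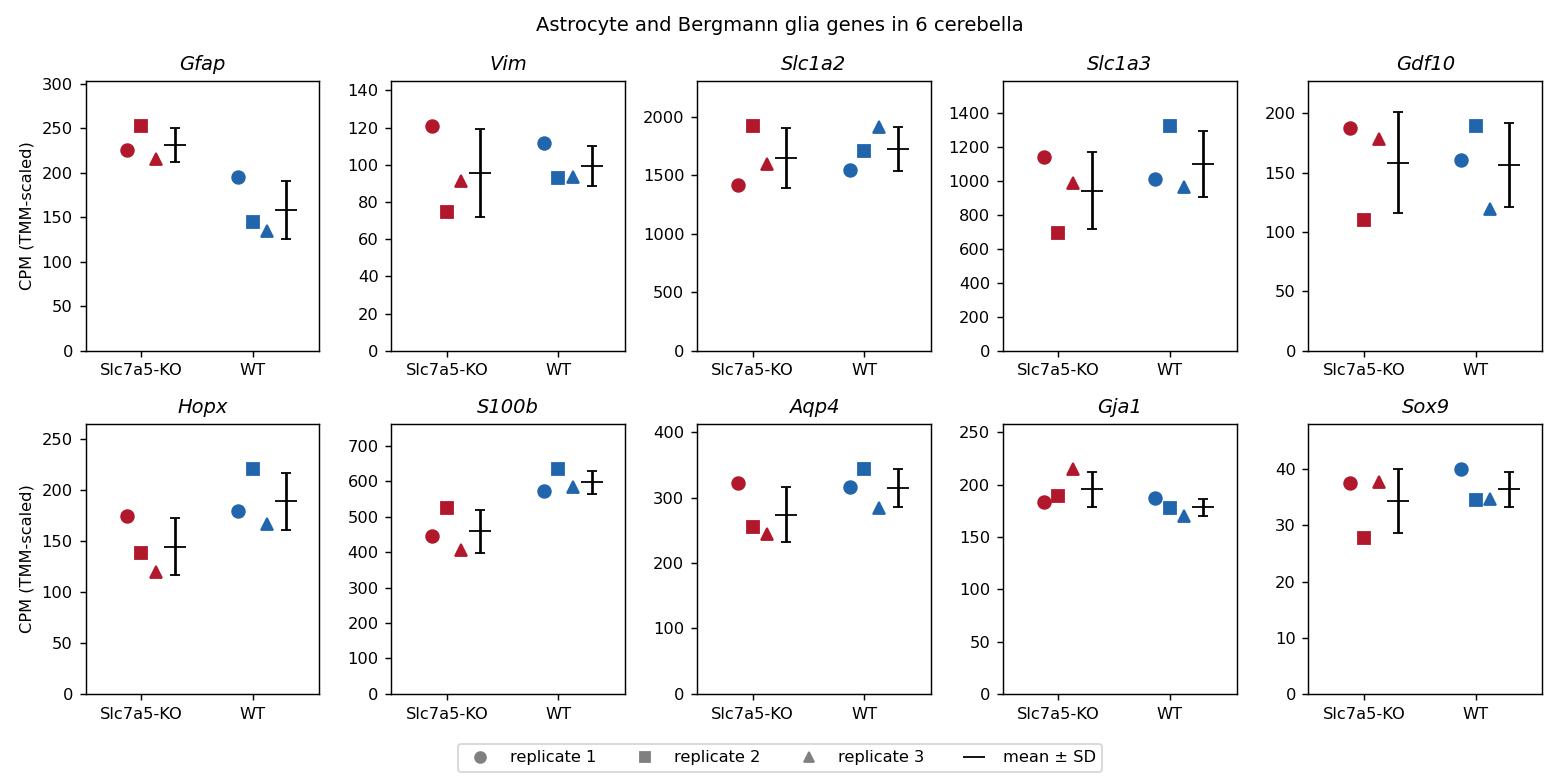
Level of each of the 10 glial genes in every library, in CPM on a linear axis from 0. Red points are libraries labelled Slc7a5-KO and blue points WT libraries, marker shape gives the replicate number, and the black bar is the mean ± SD of 3 animals. Gfap and S100b separate the groups without overlap, Gfap with all 3 Slc7a5-KO-labelled libraries above WT and S100b with all 3 below.

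Gfap encodes glial fibrillary acidic protein, the main intermediate filament of astrocytes and the usual sign of their reaction to injury. It stood at 226, 253 and 215 CPM in replicates 1 to 3 labelled Slc7a5-KO, against 196, 145 and 134 CPM in WT replicates 1 to 3. The groups did not overlap, where 5.93% of all genes were higher without overlap, and WT replicate 1 lay nearest to the Slc7a5-KO-labelled libraries. Means were 231 ± 19.3 CPM under the Slc7a5-KO label and 158 ± 32.9 CPM in WT libraries (SD, n = 3 each), a 1.46-fold difference. The 95% interval of the log2 fold change was 0.25 to 0.85, and the edgeR adjusted p was 0.31, with 67 genes at a smaller p. Reads behind these values numbered 2929 to 7298 a library, so counting error was small beside the spread between animals. 

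Among the settings run here, removing the filter on low counts was the 1 that made Gfap a called gene. Without the filter on low counts edgeR called Gfap higher (log2 0.55, edgeR adjusted p = 0.034), at a count of 71 genes called among 24587, or 0.289%. The authors' deposited table gave Gfap an adjusted p of 0.020, at an unshrunken log2 value of 0.54. That table listed 131 of 14561 genes with an adjusted value under 0.05, or 0.900%, and Gfap was the 1 member among them. DESeq2 run on the same counts gave Gfap an adjusted p of 0.092. When 1 library was left out the log2 fold change of Gfap ran from 0.44 to 0.73, with edgeR adjusted p from 0.15 to 1.00.

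Vim encodes vimentin, an intermediate filament of immature and reactive astrocytes, Bergmann glia, endothelium and fibroblasts, which assembles with Gfap protein. It stood at 121, 74.6 and 91.5 CPM in replicates 1 to 3 labelled Slc7a5-KO, against 112, 92.7 and 93.7 CPM in WT replicates 1 to 3. The lowest and the highest library both carried the Slc7a5-KO label, and the WT values lay between them. On the log2 scale Vim differed by -0.06 ± 0.16 (95% interval -0.39 to 0.28, edgeR adjusted p = 0.99). Its sign turned when Slc7a5-KO replicate 2 (0.094) or WT replicate 1 (0.039) was left out. The interval leaves room for a difference up to either bound.

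A ratio of both filament genes within a library does not depend on how libraries are scaled. Per kilobase of exon, the Gfap level was 2.10, 3.81 and 2.65 times that of Vim in replicates 1 to 3 labelled Slc7a5-KO, against 1.97, 1.76 and 1.61 times in WT replicates 1 to 3. The groups did not overlap, but Slc7a5-KO replicate 1 lay close to WT replicate 1. Set against S100b, the Gfap level per kilobase was 0.179, 0.169 and 0.186 in Slc7a5-KO-labelled libraries and 0.120, 0.0803 and 0.0806 in the WT libraries, a wider gap. The 7 such ratios computed included 4 with Gfap above the line, and only these 4 separated the groups. They share Gfap, which separates the groups alone, so they are not separate observations. The gap was narrow for Gfap over Slc1a3, at 0.400 in Slc7a5-KO replicate 1 against 0.391 in WT replicate 1. The separation of Gfap over S100b follows from the 2 members' own values, which separate in opposite directions.

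**Figure D2:**
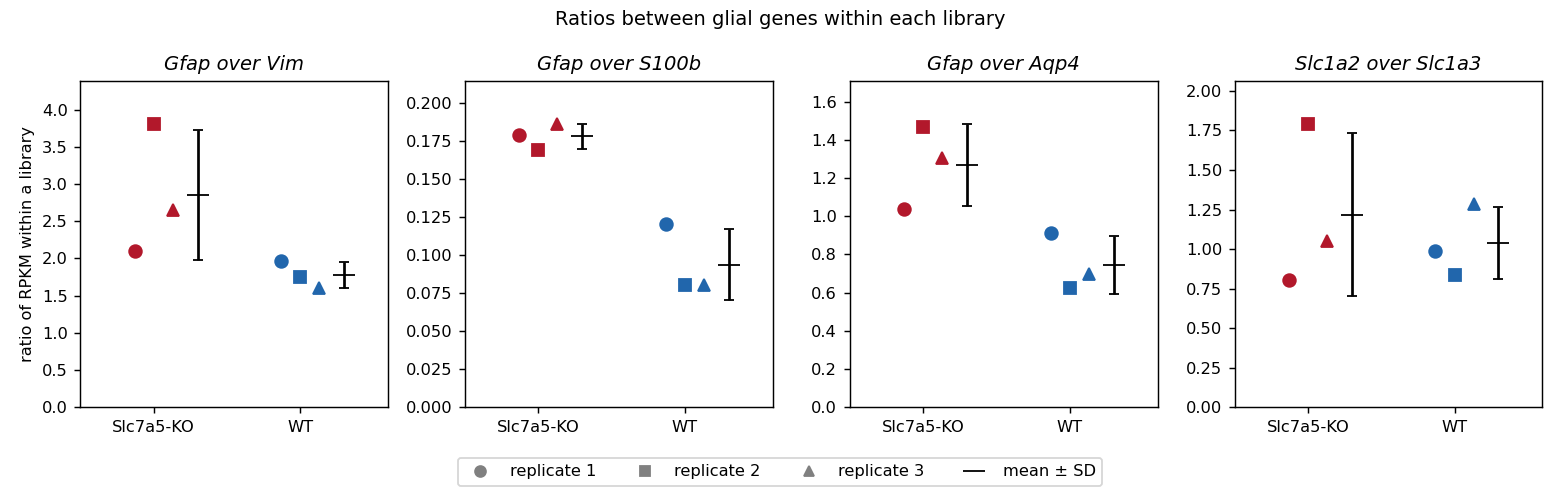
Ratio of 2 genes' levels per kilobase of exon (RPKM) within each library, on linear axes from 0. Red points are libraries labelled Slc7a5-KO, blue points WT, marker shape gives the replicate and the black bar the mean ± SD. The 3 ratios with Gfap on top separate the groups, and the ratio of Slc1a2 to Slc1a3 does not.

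Promoter windows are shown for the reactive pair Gfap and Vim, for S100b, the member that separated the groups the other way from Gfap, and for Slc1a3, the Bergmann glia transporter. Each run is the 250 bases before the RefSeq start, 5′ to 3′ on the gene's strand, on GRCm38.p6. They lie at chr11:102897201-102897450 (Gfap, minus strand), chr2:13574061-13574310 (Vim, plus), chr10:76253586-76253835 (S100b, plus) and chr15:8710808-8711057 (Slc1a3, minus). Capitals mark matches on either strand to 1 of 6 motifs.
Gfap promoter: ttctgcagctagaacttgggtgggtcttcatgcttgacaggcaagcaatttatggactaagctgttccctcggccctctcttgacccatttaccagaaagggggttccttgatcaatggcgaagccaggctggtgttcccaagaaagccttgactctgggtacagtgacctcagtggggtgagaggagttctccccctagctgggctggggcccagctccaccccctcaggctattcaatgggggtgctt
Vim promoter: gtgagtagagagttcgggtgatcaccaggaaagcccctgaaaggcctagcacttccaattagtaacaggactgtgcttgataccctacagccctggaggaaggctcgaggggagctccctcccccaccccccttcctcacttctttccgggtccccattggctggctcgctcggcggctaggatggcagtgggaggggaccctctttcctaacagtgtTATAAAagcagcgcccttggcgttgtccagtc
S100b promoter: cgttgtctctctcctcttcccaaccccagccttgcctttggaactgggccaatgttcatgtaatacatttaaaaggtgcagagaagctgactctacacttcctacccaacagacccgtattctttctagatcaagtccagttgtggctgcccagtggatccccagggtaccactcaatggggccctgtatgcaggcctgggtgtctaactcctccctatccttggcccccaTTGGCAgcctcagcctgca
Slc1a3 promoter: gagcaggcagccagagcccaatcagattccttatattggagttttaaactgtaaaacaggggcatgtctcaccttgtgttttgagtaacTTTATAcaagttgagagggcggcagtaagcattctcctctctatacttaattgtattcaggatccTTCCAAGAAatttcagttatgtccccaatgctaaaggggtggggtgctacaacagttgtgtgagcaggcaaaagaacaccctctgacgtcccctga

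The 6 motifs were searched on both strands, and none contains another. Gfap held none of them in this window. The TATA box motif, searched as TATAAA, had a match in Vim and Slc1a3 and in 12.4% of all 32851 windows of that length. The Vim match lay on the gene's strand near the start, the Slc1a3 match on the opposite strand and farther from the start. Whether either match acts as a TATA box was not tested. The STAT motif, searched as TTCNNNGAA, was found in Slc1a3 and in 7.02% of all windows. The nuclear factor I half-site, searched as TTGGCA, was found in S100b and in 12.3% of all windows. The AP-1 motif, searched as TGANTCA, was found in Gja1 and in 6.75% of all windows. The SOX motif, searched as ACAAAG (16.5% of all windows), and the ATF4 motif, searched as TGATGNAA (3.45%), were found in none of the 8 members with a window.

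Slc1a2 and Slc1a3 encode GLT-1 and GLAST, the astrocyte transporters that clear glutamate from synapses, and GLAST is the main one of Bergmann glia. Slc1a2 stood at 1415, 1920 and 1599 CPM in replicates 1 to 3 labelled Slc7a5-KO, against 1546, 1708 and 1914 CPM in WT replicates 1 to 3. The groups overlapped almost wholly (log2 -0.07 ± 0.15, 95% interval -0.38 to 0.24, edgeR adjusted p = 0.99). Slc1a3 stood at 1144, 696 and 986 CPM in replicates 1 to 3 labelled Slc7a5-KO, against 1014, 1325 and 967 CPM in WT replicates 1 to 3. Slc7a5-KO replicate 2 was the lowest library and WT replicate 2 the highest, and the other 4 lay within 967 to 1144 CPM. The log2 fold change of Slc1a3 was -0.23 ± 0.17 (edgeR adjusted p = 0.93). Leaving out Slc7a5-KO replicate 2 or WT replicate 2 brought it to -0.05 or -0.07.

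Gdf10 encodes a growth factor of the bone morphogenetic protein family that marks Bergmann glia in the mouse cerebellum. It stood at 187, 110 and 178 CPM in replicates 1 to 3 labelled Slc7a5-KO, against 161, 189 and 120 CPM in WT replicates 1 to 3. Each group held 1 low library, and the means were 159 ± 42.2 CPM under the Slc7a5-KO label and 157 ± 35.1 CPM in WT (SD, n = 3 each). On the log2 scale Gdf10 differed by 0.02 ± 0.20 (edgeR adjusted p = 1.00), and its 95% interval, -0.41 to 0.45, was the widest of the 10 members.

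Hopx encodes a small homeodomain protein without DNA binding that is found in Bergmann glia and other radial glia. It stood at 175, 139 and 120 CPM in replicates 1 to 3 labelled Slc7a5-KO, against 180, 220 and 167 CPM in WT replicates 1 to 3. The groups overlapped by 1 library, since Slc7a5-KO replicate 1 lay above WT replicate 3. On the log2 scale Hopx differed by -0.39 ± 0.15 (95% interval -0.70 to -0.07, edgeR adjusted p = 0.73), and it stayed below 0 with any 1 library left out, from -0.55 to -0.26.

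Of the transporter and Bergmann genes, Slc1a3 and Gdf10 shared both their extreme libraries. They were lowest, with Vim and Sox9, in Slc7a5-KO replicate 2, and highest, with Hopx, S100b and Aqp4, in WT replicate 2. Hopx, S100b and Aqp4 were lowest in Slc7a5-KO replicate 3. Slc1a2 was highest in Slc7a5-KO replicate 2 and lowest in Slc7a5-KO replicate 1. Its level per kilobase was 0.804, 1.79 and 1.05 times that of Slc1a3 in Slc7a5-KO-labelled libraries and 0.991, 0.838 and 1.29 times in WT libraries. The ratio of Gdf10 to Slc1a3 varied less, at 0.268, 0.259 and 0.296 in Slc7a5-KO-labelled libraries and 0.260, 0.234 and 0.203 in WT libraries.

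**Figure D3:**
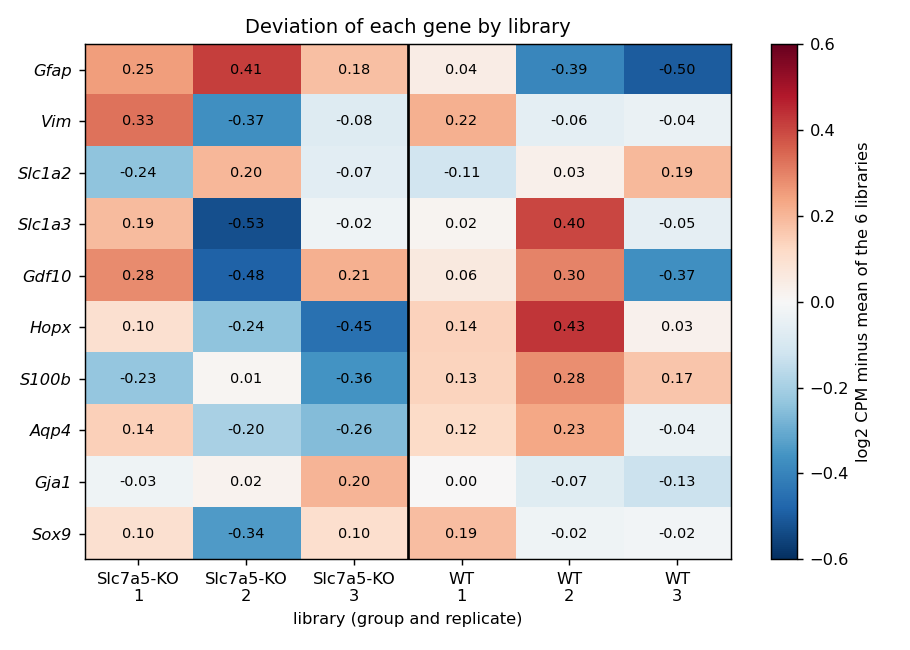
Log2 CPM of each gene in each library minus that gene's mean over the 6 libraries, with the libraries labelled Slc7a5-KO left of the line and WT right. Red cells are above the gene's mean and blue below. Slc1a3 and Gdf10 reach -0.53 and -0.48 in Slc7a5-KO replicate 2, where Gfap reaches 0.41.

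S100b encodes a calcium-binding protein of astrocytes and Bergmann glia that some oligodendrocytes also make. It stood at 445, 526 and 408 CPM in replicates 1 to 3 labelled Slc7a5-KO, against 572, 634 and 585 CPM in WT replicates 1 to 3. All 3 libraries labelled Slc7a5-KO lay below all 3 WT libraries. Means were 459 ± 60.5 CPM under the Slc7a5-KO label and 597 ± 32.9 CPM in WT (SD, n = 3 each), with a log2 95% interval of -0.66 to -0.10 and an edgeR adjusted p of 0.64. With 1 library left out the log2 value ran from -0.49 to -0.30. For S100b the authors' deposited table gave an adjusted p of 0.088, at an unshrunken log2 value of -0.38. Of all genes tested, 5.54% were lower without overlap and 11.5% separated the groups in either direction, and 2 of the 10 members did.

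Aqp4 encodes the water channel of astrocyte end-feet, Gja1 the gap junction protein connexin 43, and Sox9 a transcription factor that specifies astrocytes. Aqp4 stood at 322, 255 and 244 CPM in replicates 1 to 3 labelled Slc7a5-KO, against 317, 343 and 284 CPM in WT replicates 1 to 3. Slc7a5-KO replicate 1 lay among the WT values and the other libraries with that label below them (log2 -0.20 ± 0.14, edgeR adjusted p = 0.89). Without Slc7a5-KO replicate 1 or 3 the log2 value of Aqp4 was -0.33 or -0.12, and without WT replicate 2 it was -0.13. Gja1 stood at 183, 189 and 215 CPM in replicates 1 to 3 labelled Slc7a5-KO, against 187, 177 and 171 CPM in WT replicates 1 to 3. It was among the steadiest members, with an SD of 8.64% of the mean under the Slc7a5-KO label and 4.62% in WT, and a log2 value of 0.13 ± 0.12 (edgeR adjusted p = 0.95). That log2 value was 0.064 without Slc7a5-KO replicate 3. Sox9 stood at 37.6, 27.8 and 37.7 CPM in replicates 1 to 3 labelled Slc7a5-KO, against 40.0, 34.6 and 34.8 CPM in WT replicates 1 to 3. Slc7a5-KO replicate 2 was low and the other 5 libraries were close together (log2 -0.09 ± 0.17, edgeR adjusted p = 0.98).

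**Figure D4:**
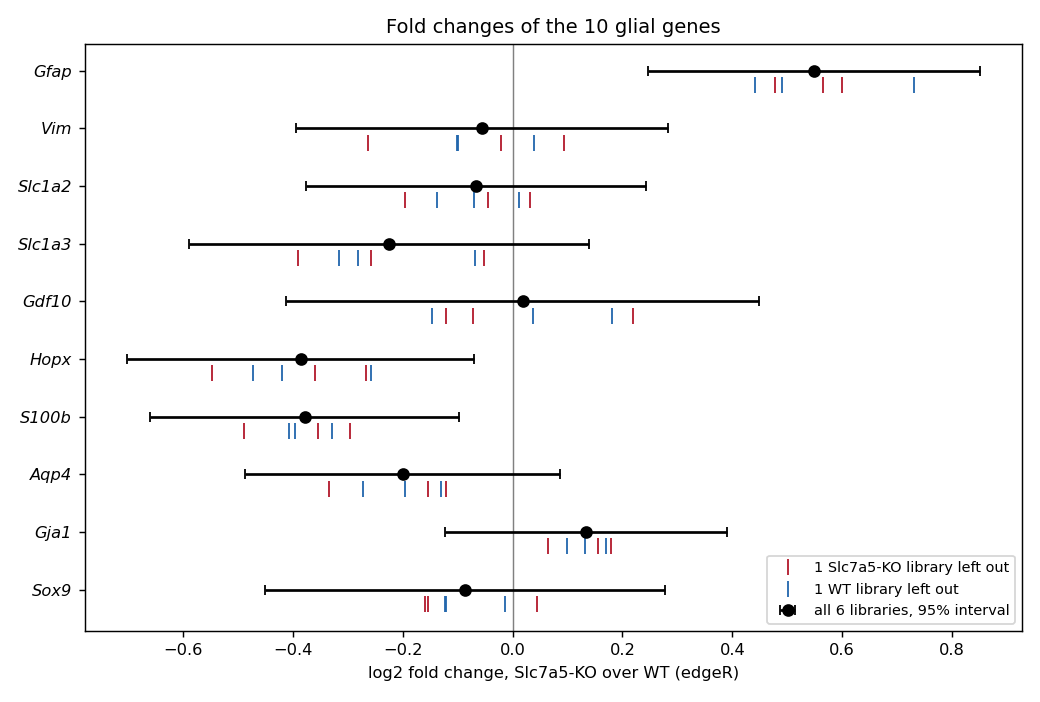
Log2 fold change of each gene, Slc7a5-KO over WT, with its 95% interval (black, edgeR, all 6 libraries). Ticks beneath give the value with 1 Slc7a5-KO-labelled library (red) or 1 WT library (blue) left out. Gfap stays between 0.44 and 0.73 and S100b between -0.49 and -0.30, while the ticks of Vim, Slc1a2, Gdf10 and Sox9 fall on both sides of 0.

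Compared per kilobase of exon, S100b had the highest level, with 310 ± 40.8 RPKM in libraries labelled Slc7a5-KO and 402 ± 22.1 RPKM in WT libraries (SD, n = 3 each). Slc1a2, Slc1a3 and Hopx followed at 128, 120 and 110 RPKM over the 6 libraries, and the ranges of neighbours among these 3 overlapped. Aqp4 and Gfap came next at 47.2 and 46.2 RPKM, and their order differed between libraries, with Aqp4 above Gfap in 3 of 6. Those 3 were the WT libraries, and Gfap was above Aqp4 in every library labelled Slc7a5-KO. This order depends on the exon lengths used, since Gfap over Aqp4 was 1.04 in Slc7a5-KO replicate 1 and 0.914 in WT replicate 1. Gdf10, Vim and Gja1 followed at 30.2, 20.6 and 18.2 RPKM, with Gdf10 overlapping Vim and Vim overlapping Gja1 in range. Sox9 was lowest at 8.57 RPKM and below all others in every library. S100b lay above 99.8% and Sox9 above 70.8% of all tested genes with an exon length. Together the 10 genes took 0.410% to 0.442% of gene reads in the libraries labelled Slc7a5-KO and 0.446% to 0.455% in WT libraries. Slc1a2 and Slc1a3 weigh most in this share, with the highest CPM of the 10 in every library, and the share was not tested between groups.

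Other genes of these cells gave few differences, and neither edgeR nor DESeq2 called a gene in any of the 6 further lists. Without the filter on low counts edgeR called 1, Slc6a11, a GABA transporter of astrocytes and Bergmann glia, named after its values were seen (with the filter, log2 0.55 ± 0.22, edgeR adjusted p = 0.75). Of 33 tested genes linked with reactive astrocytes, 20 were above 0 and 13 below, with a median log2 fold change of 0.13 (0.04 to 0.26 with 1 library left out). At an unadjusted edgeR p under 0.05, 2 of them were higher and 1 lower, where 6.22% of all genes passed that mark. Without overlap between the groups 3 were higher and 1 lower, where 11.5% of all genes separated the groups. The 2 genes given next were those with the smallest p of the list, a choice that favours separated groups. Stat3, a signal transducer known to drive Gfap in reactive astrocytes, stood at 34.6, 37.2 and 45.6 CPM in Slc7a5-KO-labelled libraries and 31.4, 27.8 and 24.7 CPM in WT libraries, without overlap (log2 0.48 ± 0.17, edgeR adjusted p = 0.67). Serpina3n, a serine protease inhibitor of reactive astrocytes, stood at 8.73, 20.9 and 20.7 CPM in Slc7a5-KO-labelled libraries and 12.7, 8.88 and 6.55 CPM in WT libraries, with overlap (log2 0.83 ± 0.32, edgeR adjusted p = 0.73).

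Of 34 other astrocyte and Bergmann glia genes, 14 were above 0 and 20 below, with 2 higher and 2 lower at an unadjusted edgeR p under 0.05 (6.22% of all genes) and a median of -0.07 that became 0.05 without WT replicate 1. Dao, the D-amino acid oxidase of cerebellar astrocytes and Bergmann glia, stood at 67.4, 68.7 and 64.7 CPM in Slc7a5-KO-labelled libraries and 94.3, 104 and 81.0 CPM in WT libraries, without overlap (log2 -0.48 ± 0.14, edgeR adjusted p = 0.47). Atp1b2, a sodium pump subunit of astrocytes, stood at 1366, 1192 and 1368 CPM in Slc7a5-KO-labelled libraries and 1082, 978 and 1010 CPM in WT libraries, also without overlap (log2 0.36 ± 0.13, edgeR adjusted p = 0.68). Dao and Atp1b2 thus lay on opposite sides of 0, and neither passed. Both were named for the smallest p of their list, a choice that favours separated groups. Of the 34 genes, 2 were higher and 3 lower without overlap, where 11.5% of all genes separated the groups.

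Neither of the 2 genes named from each remaining list passed the edgeR threshold. Glutamate transport and glutamine cycle genes had a median of 0.05 over 17 genes, 14 above 0 and 3 below (0.17 without Slc7a5-KO replicate 2), and the 2 with the smallest p were Slc1a6, the glutamate transporter of Purkinje cells (log2 -0.39 ± 0.19, edgeR adjusted p = 0.81, and log2 -0.11 without WT replicate 2), and Slc17a6, a vesicular glutamate transporter (log2 0.28 ± 0.15, edgeR adjusted p = 0.83). End-foot genes had a median of -0.08 over 14 genes, 5 above 0 and 9 below, which came to -0.042, -0.040 and -0.021 without Slc7a5-KO replicate 1, Slc7a5-KO replicate 2 and WT replicate 1. Agt, angiotensinogen, came to 0.38 ± 0.16 on the log2 scale (edgeR adjusted p = 0.75, and log2 0.56 or 0.20 without Slc7a5-KO replicate 1 or 3), and Mlc1, an astrocyte membrane protein, -0.16 ± 0.12 (edgeR adjusted p = 0.93). Glial transcription factors had a median of 0.16 over 15 genes, 11 above 0 and 4 below (0.06 without Slc7a5-KO replicate 1), where Lhx2 had 1.26 ± 0.56 at 0.71 to 5.46 CPM and Sox2 0.35 ± 0.26 (edgeR adjusted p = 0.76 and 0.93). The list of 13 other intermediate filament genes also holds Plec and Dst, which encode filament linkers, and shares Nes and Synm with the reactive astrocyte list. With 7 above 0 and 6 below, it had a median of 0.03. Leaving out Slc7a5-KO replicate 2 brought that median to -0.36 and WT replicate 2 to -0.20. Ina, a neuronal filament gene, had 0.26 ± 0.14 (0.096 without Slc7a5-KO replicate 2), and Lmnb1, a nuclear lamin, 0.66 ± 0.38 (edgeR adjusted p = 0.85 for each).

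Markers of other cells and of brainstem varied between libraries, and their part in the glial values was not tested. The summed level of 10 oligodendrocyte markers was 4419 to 7564 CPM in libraries labelled Slc7a5-KO and 4337 to 6399 CPM in WT libraries, highest in Slc7a5-KO replicate 2, the library highest in Gfap. The 11 Hox genes, transcription factors of the brainstem and spinal cord, summed to 2.17, 12.1 and 3.16 CPM in replicates 1 to 3 labelled Slc7a5-KO, against 25.4, 2.27 and 9.70 CPM in WT replicates 1 to 3. Within each group the library with the highest Hox sum also had the highest Gfap level, while the remaining libraries ran in the reverse order. The Hox sums of the groups overlapped, and the highest was in WT. The 9 Purkinje cell markers summed to 5418, 3619 and 4734 CPM in Slc7a5-KO-labelled libraries and 5221, 6362 and 5545 CPM in WT libraries, lowest and highest in the same libraries as Slc1a3. All 9 Purkinje markers and 6 of 8 granule neuron markers had a log2 value below 0. At an unadjusted edgeR p under 0.05, 4 Purkinje markers were lower, where 2.77% of all genes were lower at that mark. Rgs8 of that list (log2 -0.57) was called lower without the filter and by DESeq2, Calb1 (log2 -0.55) without the filter and with a sex term, and Ppp1r17 (log2 -0.50) with a sex term. The 7 choroid plexus markers summed to 31.8 CPM in Slc7a5-KO replicate 2, against 2363 to 5706 CPM in the other 5 libraries. Microglia markers, 7 of 8 of them above 0, summed to 327 to 366 CPM in libraries labelled Slc7a5-KO and 262 to 332 CPM in WT libraries. Endothelial markers summed to 189 to 225 CPM in libraries labelled Slc7a5-KO and 182 to 208 CPM in WT libraries. Markers of meningeal fibroblasts, which also make Vim, summed to 182 to 399 CPM under the Slc7a5-KO label and 274 to 419 CPM in WT. Ependymal markers summed to 50.1 to 71.0 CPM under the Slc7a5-KO label and 67.4 to 81.4 CPM in WT. Of those 7, Dynlrb2 (log2 -2.40) and Calml4 (log2 -1.59) were lower at an unadjusted edgeR p under 0.05, beside the same 2.77% of all genes. Both were called lower without the filter, Dynlrb2 also by DESeq2. These 5 Purkinje and ependymal genes were named after their values were seen. The groups also overlapped in oligodendrocyte precursor markers (55.4 to 79.5 CPM in Slc7a5-KO-labelled, 55.9 to 76.0 CPM in WT libraries) and in pericyte and smooth muscle markers (143 to 150 CPM in Slc7a5-KO-labelled, 120 to 157 CPM in WT libraries). No list of markers was at 0 in any library, though single Hox genes were.

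**Figure D5:**
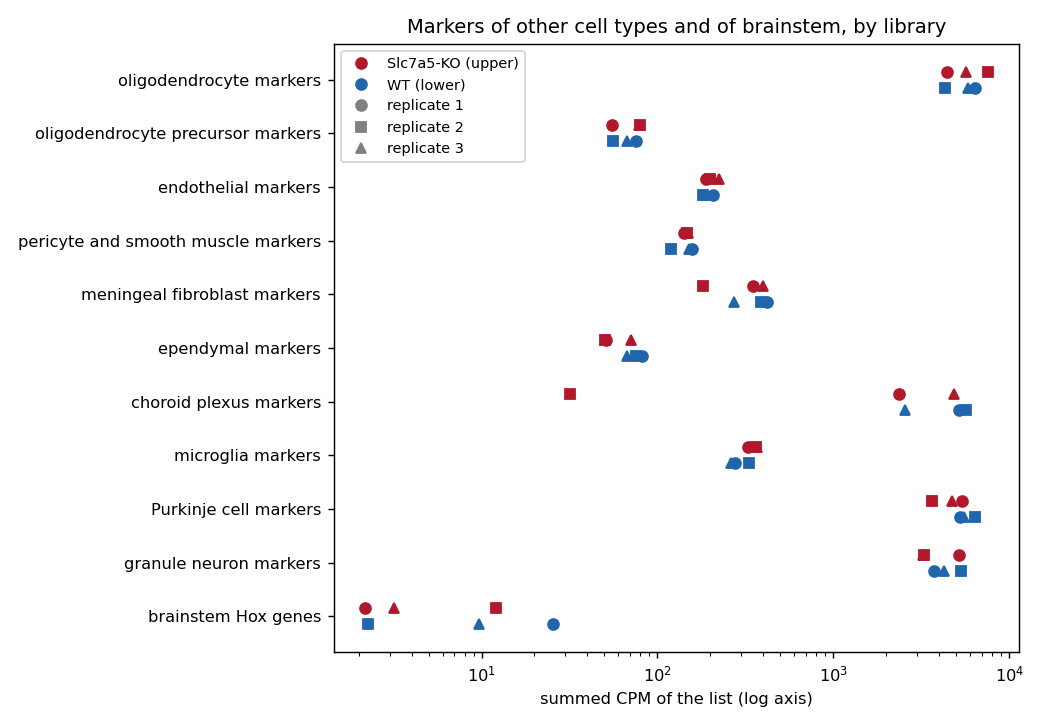
Summed CPM of each marker list in every library on a log axis, with the libraries labelled Slc7a5-KO (red) above WT (blue) in each row and marker shape giving the replicate. The groups overlap in every row, and the choroid plexus point at 31.8 CPM is Slc7a5-KO replicate 2.

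The genes whose pattern over the 6 libraries was most like that of Gfap were Arhgap33, Pcnx3, Mrpl2, Dcp1a and Nudc, with Pearson correlations of log2 CPM of 0.99, 0.99, 0.99, 0.99 and 0.98. For Slc1a3 they were Scyl2, Dennd4c, Fancm, Tmed7 and Fnip1, at 0.99, 0.99, 0.99, 0.99 and 0.98. These were the highest of 9873 genes with a mean of at least 10 CPM, so values near 1 can come from the size of the search, and none of the 10 passed the edgeR threshold. Among the members, Gdf10 was nearest to Slc1a3 (0.84) and Gja1 to Gfap (0.63), while S100b was farthest from Gfap (-0.68).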

How the data were processed

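Each animal has 1 deposited table of raw read counts per gene. Per the submitters' processing notes, STAR 2.5.4 and the build GRCm38 (mm10) were used, with the annotation release not given in the sources used here. Per the labels' protocols the SENSE mRNA-Seq V2 kit was used on total RNA. Counts on the reverse strand were taken (94.8% to 95.8% of stranded gene reads). Reads of no gene or of several genes, 19.5% to 22.2%, were left out, and reads that Slc1a3 shares with the overlapping Gm37310 may be among them. PCR copies were not told apart by molecular identifiers.

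The authors' deposited table of the same comparison lists, per the file headers, a mean normalised count (signal over 6 libraries), shrunken and unshrunken log2 fold changes, a Wald score, and p-values raw and adjusted. DESeq2 1.10.1 and R 3.2.4 are named in the submitters' processing notes, but no formula or filter.

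Symbols matched 46488 of 46983 identifiers. Exon lengths come from GENCODE release M21, which may differ from the authors' annotation. After filterByExpr (minimum count 10, total 15) and TMM scaling, edgeR 4.0.16 in R 4.3.3 ran its robust quasi-likelihood test, 2-sided, with Benjamini-Hochberg adjustment over all genes tested. CPM are TMM-scaled and RPKM are CPM per kilobase of exon. Alternatives were DESeq2 1.42.0, limma-voom (limma 3.58.1), other scalings, filters and count columns, a replicate block, a sex term and leaving out each library. DESeq2 with its older prior was added after seeing the data. The fitting step was tested on simulated data. Promoter sequences are RefSeq's and matched 8 of the 10 members.

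The members and lists were chosen with earlier results of these data known. All members are named. From each further list up to 3 genes past the threshold are named, otherwise the 2 with the smallest p, and the 5 genes most like Gfap and Slc1a3 by Pearson correlation.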

Additional observations from a re-analysis of the deposited data

Results flagged for a closer look

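Reads on the strand opposite to Gfap were not part of the comparisons. They numbered 18, 12 and 2 in replicates 1 to 3 labelled Slc7a5-KO, against 0 in each WT library, where a count of 0 allows up to 3 reads. Slc7a5-KO replicate 3, the shallowest library, was within that limit. The reads were at most 0.246% of those on both strands of the gene. A lincRNA gene, Gm26668, overlaps Gfap on that strand. Of all genes tested, 0.445% had opposite-strand reads in every library labelled Slc7a5-KO and none in WT libraries, and Gfap was the 1 member among the 10 that did. Other members had scattered counts, such as 0 in all 3 libraries labelled Slc7a5-KO and 14, 0 and 0 in WT replicates 1 to 3 for Gdf10.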

How the results depend on the processing

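Of 150 member values under 15 alternatives, 139 kept their direction and their side of the threshold, 10 changed sign and 1 passed the threshold. Gfap passed without the filter on low counts (log2 0.55, edgeR adjusted p = 0.034), which made 1 member called there and 0 under every other alternative. The sign changes were in values near 0. Gdf10 was -0.0038 by limma-voom and -0.20 with a sex term, which gave -0.41 for Slc1a3. Sex was read from Xist and Y-linked genes, with 2 females and 1 male under the Slc7a5-KO label and 1 female and 2 males in WT. With 1 library left out, log2 values ran from -0.15 to 0.22 for Gdf10, -0.26 to 0.094 for Vim, -0.20 to 0.031 for Slc1a2, -0.16 to 0.044 for Sox9, -0.27 to 0.018 for Fancm and 0.44 to 0.73 for Gfap, and the members' median from -0.21 to -0.0042. Genes called higher numbered 55 without the filter, 39 by DESeq2, 37 by DESeq2 with its older prior and 3 to 20 when 1 library was left out, against 8. Genes called lower numbered 16, 6, 6 and 0 to 3 under the same changes and 5 with the sex term, against 0. The cause of these shifts was not tested. The labels number the replicates but state no pairing of animals. Deviations of same-numbered libraries correlated by -0.04, -0.06 and -0.03, and those of other-numbered libraries by -0.03 to 0.07. Values this near 0 cannot decide whether the animals were paired. With the replicate block no member was called, genes called higher numbered 6, and Gfap had a log2 value of 0.56. Depth limits Sox9 most, at 513 to 1417 reads a library.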
